A study of Mus musculus with 6 samples.

Results

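The genes described are 37 genes of the lysosome and of its proton pump, chosen by name and function, though with earlier results of these data known. The list holds the transcription factors Tfeb and Tfe3, 6 lysosomal membrane proteins, 17 genes of hydrolases with an activator, progranulin and the autophagy receptor gene Sqstm1, and 10 genes of the vacuolar proton pump (V-ATPase). They were read from a table of 38926 genes. All 37 reached the level needed for testing, as did 11436 genes in all. RNA had been sequenced from LSK cells, the bone marrow fraction without lineage markers and with Sca-1 and Kit, which holds blood stem cells and early progenitors. One group of 3 libraries came from C57BL/6 mice aged 8 to 12 weeks that were injected with haloperidol for 3 days in a row. The other group of 3 came from mice of the same strain and age injected with its solvent, DMSO, over the same days. Haloperidol or DMSO also stayed with the cells while they were sorted from crushed, collagenase-digested femur and tibia, so that the contrast covers injection and sorting together, and no group without solvent was analysed here.

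The lysosome is the acidic compartment in which cells break down proteins, sugars, lipids and worn-out organelles. Its hydrolases need a low pH, which the V-ATPase provides: a soluble part, V1, burns ATP and turns a rotor, and a membrane part, V0, lets protons through. The factors TFEB and TFE3, held in the cytosol by the kinase complex mTORC1 on the lysosome's surface and released when lysosomes are stressed, bind the CLEAR motif in the promoters of many of these genes. Haloperidol, an antipsychotic that blocks dopamine receptors, is a cationic amphiphilic drug, a class of weak bases known to collect in acidic lysosomes.

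Each library held 8523513 to 8871066 reads in genes with haloperidol and 8621535 to 8969020 with DMSO, a depth worked out from the smallest steps in the FPKM values. In one library, 0 reads of a gene allows a level of up to 0.338 to 0.352 RPM (reads scaled to a library's total) with haloperidol and up to 0.334 to 0.348 with DMSO, which covers counting error only. FPKM, the authors' unit, is fragments scaled to gene length and library size, so levels can be compared between genes. Kit had 87.9, 85.3 and 69.8 FPKM with haloperidol, against 84.2, 96.3 and 82.9 FPKM with DMSO, and Ly6a, which encodes Sca-1, had 142, 126 and 147 FPKM with haloperidol, against 139, 125 and 144 FPKM with DMSO. Neither of these sort markers passed the test (adjusted p = 0.396 and 0.861). Of 4 further genes read beside them, which do not define LSK cells, Procr and Cd34 were lower (log2 fold changes of -0.37 and -0.22) and Flt3 was higher (0.16). Slamf1 did not pass (log2 fold change -0.40, adjusted p = 0.0572 by limma), though its haloperidol libraries all lay below its DMSO libraries. Flt3 lost its call without any one of the 6 libraries (adjusted p from 0.0733 to 0.155), and Cd34 lost its call without DMSO replicate 2 (adjusted p = 0.066). The labels do not say whether replicates came from separate mice, so p-values measure the spread between these libraries, which may be technical. They name no sort or sequencing day either, so a batch with the same split and the drug cannot be told apart. In whole sorted fractions, fewer cells of a type and less RNA per cell cannot be told apart. The kit kept no strand, so a gene's reads cannot be told apart from those of a gene that overlaps it on the other strand.

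The lysosomal genes did not move as one block. With haloperidol, 8 of the 37 rose: the membrane proteins Cd68 and Scarb2, the cathepsins Ctss and Ctsz, the sugar hydrolases Gusb and Man2b1, and the pump genes Atp6v0c and Atp6ap2. Another 7 fell: the hydrolases Ctsd, Hexa, Asah1 and Smpd1 and the V1 subunits Atp6v1b2, Atp6v1d and Atp6v1h. The other 22 did not pass. A gene passed where limma's adjusted p on log2(FPKM + 1) lay under 0.05 over all genes tested. Of all genes tested, 24.5% passed, 11.5% as higher and 13.0% as lower with haloperidol, beside 40.5% of the lysosomal genes. These genes are also well expressed. Their median level was 44.3 FPKM, from 3.50 FPKM for Tfeb to 280.1 FPKM for Cd63, against 9.88 FPKM for all genes tested. Among genes above that median level, 32.5% passed. The difference between these shares was not tested.

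Apart from Cd68, the changes were small. The log2 fold changes of the 37 genes ran from -0.43 to 1.42, with a median of -0.03, beside a median of 0.00 for all genes tested. Of the 15 called genes, 14 differed by less than 1.5-fold and 1, Cd68, by more than 2-fold. All 3 haloperidol libraries lay on one side of all 3 DMSO libraries for 22 of the 37 genes (59.5%), beside 43.1% of all genes tested. These 22 include the 15 called genes. Calls for Cd68, Ctsz, Gusb, Man2b1, Atp6v1b2 and Atp6v1d held in all 16 alternative analyses, and the other 9 were lost in at least 1. Leaving out 1 library at a time left 4 to 7 genes higher and 2 to 7 lower. Without haloperidol replicate 1, 5 were higher and 5 lower, without haloperidol replicate 2, 7 and 3, and without haloperidol replicate 3, 4 and 3. Without DMSO replicate 1 the counts were 4 and 7, without DMSO replicate 2 they were 4 and 4, and without DMSO replicate 3 they were 6 and 2.

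**Figure D1:**
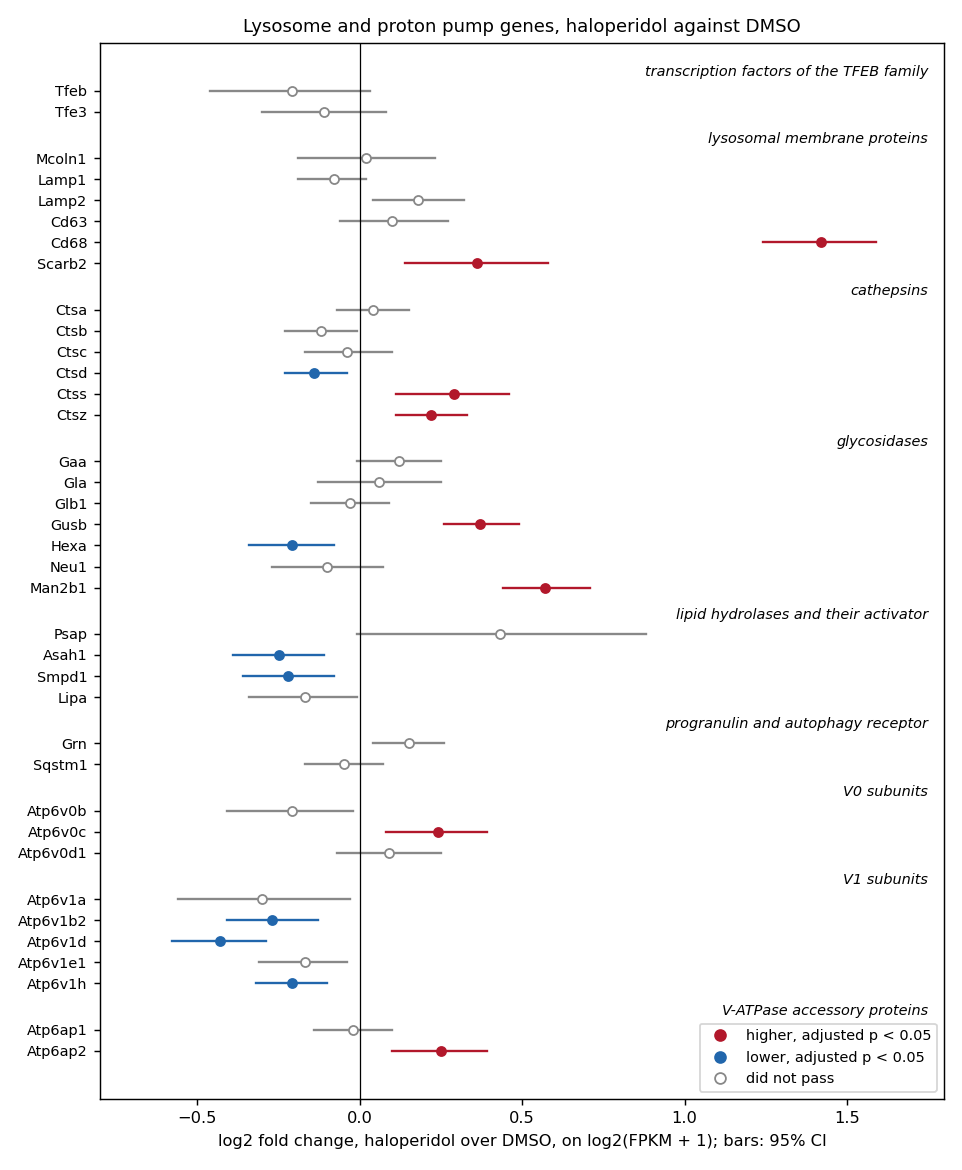
Log2 fold change (haloperidol over DMSO, on log2(FPKM + 1)) of the 37 genes with 95% confidence intervals, grouped by role, 3 libraries per group. Filled red points are the 8 genes that rose, filled blue points the 7 that fell and open points the 22 that did not pass. Cd68 stands at 1.42, and the 5 V1 subunits all lie left of 0.

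Tfeb and Tfe3, the listed factors that drive the lysosomal programme, were low and did not pass. Tfec, a relative of TFEB outside the list that is described further below, did fall (log2 fold change -1.01, adjusted p = 0.000596 by limma). Tfeb had 2.73, 3.19 and 3.60 FPKM with haloperidol, against 4.13, 3.74 and 3.62 FPKM with DMSO. The groups did not overlap, but haloperidol replicate 3 came within reach of DMSO replicate 3, and the log2 fold change was -0.21 ± 0.11 (SE, adjusted p = 0.186 by limma). Tfe3 had 4.37, 4.63 and 4.16 FPKM with haloperidol, against 4.87, 4.96 and 4.56 FPKM with DMSO. Its groups overlapped, and the log2 fold change was -0.11 ± 0.08 (SE, adjusted p = 0.387 by limma). RNA levels of Tfeb and Tfe3 do not show where the proteins are in the cell, which is how their activity is mainly set.

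Promoters were searched for the core of the CLEAR motif, TCACGTGA, and for the E-box CACGTG that it contains. Both read the same on either strand. The windows were RefSeq's 300 bases around each annotated start, 250 before and 50 after it, on GRCm38.p6, and 33 of the 37 genes were found in the table. Ctsb, Asah1, Atp6v1b2 and Atp6v1h are named only. The core was in the windows of 6 of the 33 (18.2%), beside 192 of the 8099 tested genes in that table (2.37%) and 1.97% of all its windows. The E-box, counted with or without the rest of the core, was in 10 of the 33 (30.3%), beside 12.14% of the tested genes in the table. These 10 include the 6 whose windows held the core. The first core in each of these windows began between -228 and -4 bases from the start, with the start at 0. Ctsa and Gla each held a further core, which in Ctsa lay just after the start. The 6 stretches are shown because they carry the site that the TFEB family is known to bind. Each reads 5′ to 3′ on the gene's strand, and capitals mark the core or the E-box. Mcoln1 is from chr8:3500437-3500516 (plus strand), Ctsa from chr2:164833724-164833803 (plus), Ctsd from chr7:142387883-142387962 (minus), Gla from chrX:134601190-134601255 (minus), Atp6v0d1 from chr8:105566025-105566104 (minus) and Atp6v1a from chr16:44139348-44139427 (minus).
Mcoln1: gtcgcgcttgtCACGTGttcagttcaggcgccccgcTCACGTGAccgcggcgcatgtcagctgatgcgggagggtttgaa
Ctsa: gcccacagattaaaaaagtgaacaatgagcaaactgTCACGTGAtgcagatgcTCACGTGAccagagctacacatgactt
Ctsd: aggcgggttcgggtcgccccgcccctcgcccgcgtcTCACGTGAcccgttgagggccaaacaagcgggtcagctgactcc
Gla: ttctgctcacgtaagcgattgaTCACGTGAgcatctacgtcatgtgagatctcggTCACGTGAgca
Atp6v0d1: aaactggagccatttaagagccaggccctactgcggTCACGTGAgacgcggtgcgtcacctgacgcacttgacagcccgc
Atp6v1a: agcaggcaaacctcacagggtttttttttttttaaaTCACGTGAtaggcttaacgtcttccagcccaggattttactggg

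Of the 6 genes whose windows held the core, 0 were higher and 1, Ctsd, was lower. Their log2 fold changes ran from -0.30 to 0.09. Of all genes tested, 11.5% were higher and 13.0% lower, so 6 genes are too few for these counts to be read. The 27 genes in the table whose windows lack the core include all 8 that rose and 3 that fell. Among the other 186 tested genes with the core, 14 were higher and 26 lower (21.5% in all), beside 24.5% of all genes tested. A match of letters is a description of the window, and no match says only that these letters are not in it.

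Among the membrane proteins, Cd68 and Scarb2 rose and the other 4 did not pass. Cd68 encodes macrosialin, a heavily glycosylated protein of the LAMP family that is abundant in macrophages. It had 46.0, 40.6 and 48.2 FPKM with haloperidol, against 17.2, 16.0 and 15.3 FPKM with DMSO. The lowest haloperidol library lay more than 2-fold above the highest DMSO library. The means were 44.9 ± 3.90 and 16.2 ± 0.987 FPKM (SD, n = 3 each), a ratio of 2.78, and the log2 fold change was 1.42 ± 0.08 (SE, adjusted p = 3.21e-05 by limma). It ranked 17 by fold change among the genes that rose. The gene lies at chr11:69664213-69666153 on the minus strand of GRCm38, the assembly that mm10 names, with no exon shared with another gene in GENCODE vM21. Its neighbour Eif4a1 had 124 ± 4.51 FPKM with haloperidol and 119.8 ± 9.51 FPKM with DMSO and did not pass, while the neighbour Mpdu1 had 26.0 ± 1.56 and 21.1 ± 1.19 FPKM (log2 fold change 0.29, adjusted p = 0.0151). Its promoter window, chr11:69666121-69666420 on the minus strand, is shown because Cd68 moved most, and it holds neither the core nor the E-box.
Cd68: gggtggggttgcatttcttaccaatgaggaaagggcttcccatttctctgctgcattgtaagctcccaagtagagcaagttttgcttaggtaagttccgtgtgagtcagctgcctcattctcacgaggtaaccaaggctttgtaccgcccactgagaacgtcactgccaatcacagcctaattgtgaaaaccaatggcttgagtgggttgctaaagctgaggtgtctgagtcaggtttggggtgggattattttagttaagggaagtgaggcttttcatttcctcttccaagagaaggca

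Markers of the cells in which Cd68 is best known were compared in the same libraries. Among all genes tested, 11.5% were higher and 13.0% lower with haloperidol, and the marker lists are short for a comparison with these shares. Of 13 macrophage and monocyte genes, 6 were tested: with haloperidol 0 were higher and 1 was lower. Their summed level was 98.5 to 121 FPKM with haloperidol and 91.9 to 106 FPKM with DMSO, most of it from Cd14. The macrophage gene Adgre1, listed as Emr1, had 0.430, 0.312 and 0.138 FPKM with haloperidol, against 0.346, 0.390 and 0.342 FPKM with DMSO. C1qc, the macrophage gene that fell, had 0.722, 0.757 and 0.581 FPKM with haloperidol, against 1.74, 1.19 and 1.32 FPKM with DMSO (log2 fold change -0.51, adjusted p = 0.034 by limma). Its call was lost without any 1 of the haloperidol replicates or DMSO replicate 2 (adjusted p from 0.0561 to 0.0883), and without DMSO replicate 1 or 3 it was too low to be tested. The monocyte receptor gene Ccr2, too low to be tested, had 1.38, 0.862 and 0.878 FPKM with haloperidol, against 0.351, 0.774 and 0.676 FPKM with DMSO, again without overlap. C1qc and Ccr2 were added to the named genes after their values were seen. Mertk and Mrc1 were under 1 FPKM in every library and at 0 in 1 DMSO library each. The receptor gene Csf1r had 8.09, 5.94 and 5.49 FPKM with haloperidol, against 4.18, 6.15 and 4.95 FPKM with DMSO, so the groups overlapped (adjusted p = 0.195 by limma). Some genes of granulocyte and monocyte progenitors rose with haloperidol, as Cd68 did. Of 7 such genes 6 were tested and 4 were higher, Prtn3, Ctsg, Ms4a3 and Fcgr3, with log2 fold changes of 0.76, 1.26, 1.43 and 0.62. Their summed level was 760.2 to 1029 FPKM with haloperidol and 610.4 to 665 FPKM with DMSO. Mpo (log2 fold change 0.05) and Elane (0.74) did not pass, though Elane passed without haloperidol replicate 2 (adjusted p = 0.00119), and Cebpe was at most 0.181 FPKM in every library and at 0 in DMSO replicate 2. Of the 3 mast cell and basophil genes tested, Mcpt8 and Cpa3 also rose (log2 fold changes 1.22 and 0.79) and Gata2 fell (-0.44). The part of any of these cells in the rise of Cd68, or of the cathepsins and sugar hydrolases described next, was not tested.

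**Figure D2:**
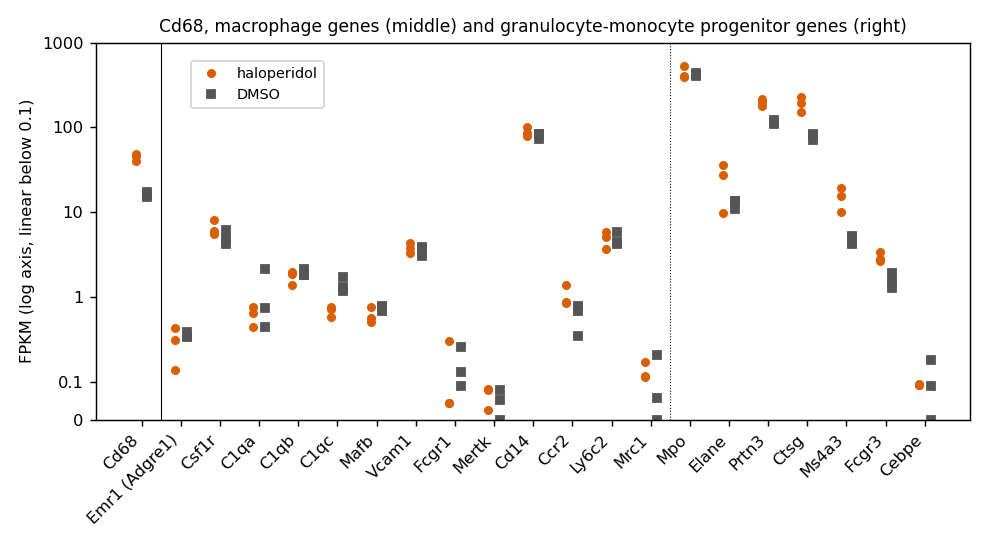
FPKM of Cd68, of 13 macrophage and monocyte genes and of 7 granulocyte and monocyte progenitor genes in each library, on a log axis that is linear below 0.1. Orange circles are the 3 haloperidol libraries and grey squares the 3 DMSO libraries. Cd68, Prtn3, Ctsg, Ms4a3 and Fcgr3 are higher in every haloperidol library than in any DMSO library, as is Ccr2, while C1qc is lower, and Emr1, Mertk, Fcgr1 and Mrc1 stay under 1 FPKM in all 6 libraries.

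Scarb2 encodes LIMP-2, the receptor that carries glucocerebrosidase to the lysosome. It had 19.8, 18.7 and 22.7 FPKM with haloperidol, against 13.8, 16.5 and 16.8 FPKM with DMSO. The groups did not overlap, and the log2 fold change was 0.36 ± 0.10 (SE, adjusted p = 0.0265 by limma). The call did not hold without haloperidol replicate 1 or 3 or DMSO replicate 1 or 2, with adjusted p up to 0.0739, nor without the filter on low values (0.0772).

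The lysosome's structural glycoproteins changed little. Lamp1, the most used marker of the lysosomal membrane, had 130.4, 131 and 125 FPKM with haloperidol, against 133, 138 and 139.6 FPKM with DMSO. The groups lay side by side without overlap, and the log2 fold change of -0.08 ± 0.05 (SE) did not pass (adjusted p = 0.22 by limma). Lamp2, which also serves chaperone-mediated autophagy, had 26.8, 26.9 and 28.2 FPKM with haloperidol, against 22.4, 25.1 and 24.3 FPKM with DMSO. All haloperidol libraries were above all DMSO libraries, and the log2 fold change of 0.18 ± 0.06 (SE) missed the threshold (adjusted p = 0.0583 by limma), which it passed with upper quartile scaling, with quantile normalization and in the test on recovered reads (lowest adjusted p 0.0185). Mcoln1, the calcium channel that acts upstream of TFEB, had 14.9, 11.8 and 13.9 FPKM with haloperidol, against 12.9, 14.2 and 12.8 FPKM with DMSO. Its groups overlapped, with a log2 fold change of 0.02 and a 95% confidence interval from -0.19 to 0.23. Cd63, a tetraspanin of late endosomes and lysosomes, overlapped as well (log2 fold change 0.10, adjusted p = 0.32).

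Of the 6 cathepsins, the lysosome's proteases and peptidases, Ctss and Ctsz rose and Ctsd fell. Ctss, the protease that trims the invariant chain of MHC class II, had 42.5, 46.1 and 52.0 FPKM with haloperidol, against 36.3, 39.8 and 38.5 FPKM with DMSO. The groups did not overlap, and the log2 fold change was 0.29 ± 0.08 (SE, adjusted p = 0.0281 by limma). It did not pass without haloperidol replicate 2 or 3 or without any 1 of the DMSO replicates (adjusted p up to 0.0851), nor without the filter (0.0756). Ctsz, a carboxypeptidase, had 128, 120.2 and 127 FPKM with haloperidol, against 105, 106 and 110.3 FPKM with DMSO. Its log2 fold change of 0.22 ± 0.05 (SE, adjusted p = 0.0118 by limma) was called under every alternative, with adjusted p up to 0.0488. Ctsz shares exon sequence with Nelfcd on the other strand, which had 40.8 to 44.7 FPKM with haloperidol and 38.5 to 39.8 FPKM with DMSO.

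Ctsd, the main aspartic protease of the lysosome and the most abundant hydrolase of the list, moved the other way. It had 202, 205 and 202 FPKM with haloperidol, against 221, 225 and 224 FPKM with DMSO. Each group was tight and the groups lay well apart, but the difference was small, with means of 203 ± 1.84 and 223 ± 1.82 FPKM (SD, n = 3 each). On the log2 scale Ctsd fell by 0.14 ± 0.04 (SE, adjusted p = 0.04 by limma). Among other settings, the call was lost without any 1 of the 6 libraries (adjusted p from 0.0755 to 0.129), without the filter (0.0527) and with upper quartile scaling. An annotated gene on the same strand, Gm49369, shares exon sequence with Ctsd, so the counting could divide their reads. Ctsa, Ctsb and Ctsc did not pass, with log2 fold changes from -0.12 to 0.04. Ctsb came nearest, with 63.2 to 66.4 FPKM in the haloperidol libraries and 68.4 to 72.6 FPKM in the DMSO libraries (adjusted p = 0.0946 by limma).

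The glycosidases, which strip sugars from glycoproteins and glycolipids, held the clearest rises after Cd68. Man2b1, the acid alpha-mannosidase, had 92.3, 85.0 and 84.4 FPKM with haloperidol, against 56.1, 62.0 and 56.7 FPKM with DMSO. All haloperidol libraries were above all DMSO libraries by a wide margin. The means were 87.2 ± 4.35 and 58.3 ± 3.26 FPKM (SD, n = 3 each), and the log2 fold change was 0.57 ± 0.06 (SE, adjusted p = 0.000459 by limma). The gene is at chr8:85083270-85098282 on the plus strand. Gusb, beta-glucuronidase, at chr5:129989011-130003049 on the minus strand, had 57.2, 58.5 and 62.0 FPKM with haloperidol, against 44.9, 45.8 and 45.7 FPKM with DMSO. The DMSO libraries spread by less than 1 FPKM, and the log2 fold change was 0.37 ± 0.05 (SE, adjusted p = 0.00151 by limma).

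Hexa, the alpha chain of the hexosaminidase that degrades the ganglioside GM2, fell. It had 75.5, 72.6 and 75.5 FPKM with haloperidol, against 80.3, 88.0 and 91.2 FPKM with DMSO. DMSO replicate 1 was the closest to the haloperidol libraries, and the log2 fold change was -0.21 ± 0.06 (SE, adjusted p = 0.0303 by limma). The call was lost without haloperidol replicate 1, 2 or 3 or DMSO replicate 2 or 3 (adjusted p up to 0.0987) and without the filter (0.0627). Gaa, Gla, Glb1 and Neu1, which cleave glycogen, alpha-galactosides, beta-galactosides and sialic acid, did not pass, with log2 fold changes from -0.10 to 0.12 and overlapping groups.

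**Figure D3:**
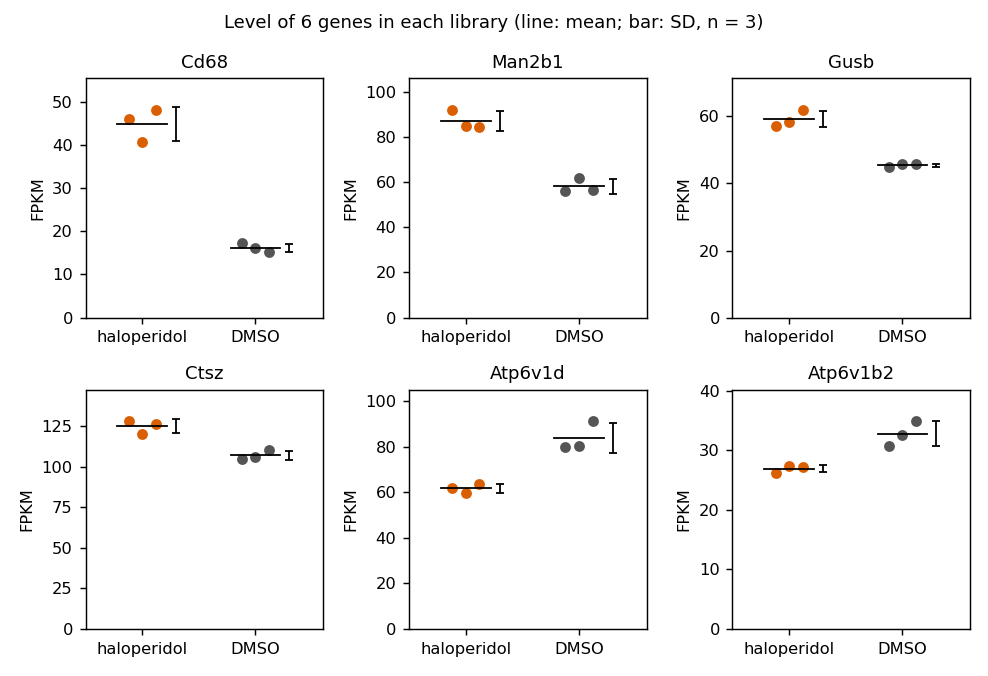
FPKM in each library of the 6 genes whose calls held in all 16 alternative analyses, each panel from 0, with the mean (line) and SD (bar, n = 3). Haloperidol libraries are left and DMSO libraries right. Cd68, Man2b1, Gusb and Ctsz are higher with haloperidol and Atp6v1d and Atp6v1b2 lower, with no overlap between groups.

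Both sphingolipid hydrolases among the 4 lipid genes fell. Asah1, acid ceramidase, which splits ceramide into sphingosine and fatty acid, had 30.1, 30.1 and 28.5 FPKM with haloperidol, against 33.7, 34.7 and 37.8 FPKM with DMSO. The groups did not overlap, and the log2 fold change was -0.25 ± 0.06 (SE, adjusted p = 0.0185 by limma). Without haloperidol replicate 3 or DMSO replicate 3 the adjusted p was at most 0.0558, and it lay over 0.05 in both. Smpd1, acid sphingomyelinase, which makes ceramide from sphingomyelin, had 17.4, 15.9 and 16.7 FPKM with haloperidol, against 18.9, 20.4 and 19.4 FPKM with DMSO. Here too every haloperidol library was below every DMSO library, and on the log2 scale Smpd1 fell by 0.22 ± 0.06 (SE, adjusted p = 0.0336 by limma). Among other settings, this call was lost without haloperidol replicate 2 or 3 or DMSO replicate 2 or 3 (adjusted p up to 0.116) and without the filter (0.0501).

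Psap encodes the precursor of the saposins, which present sphingolipids to these enzymes, and its values, chosen for display after they were seen, had the widest standard error among the 37 genes. It had 151, 126 and 102 FPKM with haloperidol, against 116, 98.6 and 68.0 FPKM with DMSO. The groups overlapped and both spread widely, with SDs of 24.9 and 24.1 FPKM. The log2 fold change of 0.43 ± 0.19 (SE, adjusted p = 0.139 by limma) did not pass. Over the alternatives its adjusted p ran from 0.00499 to 0.358, and it passed in 2 of the 16, the test on recovered reads being 1 of them. Lipa, the acid lipase for cholesteryl esters and triglycerides, had 18.1 to 21.5 FPKM in the haloperidol libraries and 21.4 to 22.8 FPKM in the DMSO libraries and did not pass (adjusted p = 0.113 by limma).

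Progranulin and the autophagy receptor did not pass either. Grn, a secreted protein that also acts in the lysosome, had 73.4, 70.0 and 76.1 FPKM with haloperidol, against 65.5, 64.9 and 67.1 FPKM with DMSO. The groups did not overlap, and the log2 fold change of 0.15 ± 0.05 (SE) came close to the threshold (adjusted p = 0.0584 by limma). Upper quartile scaling and the test on recovered reads put it past the threshold. Sqstm1, the gene of p62, which links ubiquitinated cargo to autophagosomes, had 173 to 192 FPKM in the haloperidol libraries and 185 to 189 FPKM in the DMSO libraries.

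In the proton pump, 3 of the 5 V1 subunit genes listed fell with haloperidol, and 0 rose. For all 5 V1 genes listed, the haloperidol libraries lay below the DMSO libraries without overlap, and 3 passed. Of all genes tested, 43.1% had groups without overlap in either direction and 13.0% passed as lower. A list of 5 genes is short for such a comparison, which was not tested. Summed over the 5 genes, the level was 266 to 283 FPKM with haloperidol and 319.7 to 348 FPKM with DMSO. Atp6v1d, a subunit of the central rotor stalk, at chr12:78840725-78861638 on the minus strand, had 62.0, 59.6 and 63.5 FPKM with haloperidol, against 79.9, 80.3 and 91.4 FPKM with DMSO. The gap between groups was wider than the range within either. The log2 fold change was -0.43 ± 0.06 (SE, adjusted p = 0.00206 by limma).

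Atp6v1b2, part of the ring that hydrolyses ATP, at chr8:69088646-69113711 on the plus strand, had 26.2, 27.4 and 27.2 FPKM with haloperidol, against 30.8, 32.6 and 34.9 FPKM with DMSO. Its log2 fold change was -0.27 ± 0.06 (SE, adjusted p = 0.0136 by limma). Atp6v1h, which regulates ATP use by the V1 sector, had 64.5, 62.8 and 61.7 FPKM with haloperidol, against 71.5, 71.3 and 76.3 FPKM with DMSO. The log2 fold change was -0.21 ± 0.05 (SE, adjusted p = 0.017 by limma), a call lost without haloperidol replicate 2 or DMSO replicate 3 (adjusted p up to 0.0532). Atp6v1h shares exon sequence with Rgs20 on the other strand, which was at most 0.0265 FPKM in every library.

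Atp6v1a, the catalytic subunit, and Atp6v1e1, of the peripheral stalk, did not pass. Atp6v1a had 14.3, 13.9 and 14.0 FPKM with haloperidol, against 14.5, 17.4 and 21.2 FPKM with DMSO. The haloperidol libraries were nearly equal, the DMSO libraries were spread, and DMSO replicate 1 was just above the haloperidol libraries. The log2 fold change was -0.30 ± 0.12 (SE, adjusted p = 0.0951 by limma), and without DMSO replicate 1 the adjusted p was 0.0198. Atp6v1e1 had 116, 102 and 116 FPKM with haloperidol, against 123, 128 and 125 FPKM with DMSO (log2 fold change -0.17, adjusted p = 0.0686 by limma), and it passed after rescaling to a common sum, with quantile normalization and with sample quality weights.

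The 3 V0 subunits listed differed among themselves. Atp6v0c, the subunit that makes up most of the proton-carrying ring, rose. It had 34.4, 33.0 and 38.3 FPKM with haloperidol, against 30.8, 28.3 and 30.1 FPKM with DMSO. The groups did not overlap, and the log2 fold change was 0.24 ± 0.07 (SE, adjusted p = 0.0354 by limma). The call was lost without haloperidol replicate 1 or 3 or any 1 of the DMSO replicates (adjusted p up to 0.117) and without the filter (0.0742). Atp6v0c has pseudogene copies in the annotation, between which reads could be split, so its value is uncertain. Atp6v0b, another ring subunit, had 47.4 to 54.6 FPKM in the haloperidol libraries and 53.6 to 66.4 FPKM in the DMSO libraries (log2 fold change -0.21, adjusted p = 0.106 by limma), and it passed in 1 of the 16 alternative analyses. Atp6v0d1, which joins the ring to the V1 stalk, overlapped between groups (log2 fold change 0.09).

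Of the accessory proteins, Atp6ap2, also known as the prorenin receptor, rose. It had 69.0, 64.5 and 66.6 FPKM with haloperidol, against 54.7, 52.5 and 61.4 FPKM with DMSO. DMSO replicate 3 stood nearest the haloperidol libraries, and the log2 fold change was 0.25 ± 0.07 (SE, adjusted p = 0.0269 by limma). The call was lost without haloperidol replicate 1 or 3 or DMSO replicate 1 or 2 and without the filter (adjusted p up to 0.0958). Atp6ap1, which helps assemble the pump, overlapped between groups (log2 fold change -0.02, 95% confidence interval -0.14 to 0.10).

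Subunit genes outside the 37 were read from a fuller list of the pump. With these, 9 V1 genes were tested, of which 0 were higher and 5 lower, with a median log2 fold change of -0.27. For V0, 7 genes were tested, of which 1 was higher and 0 lower, with a median of 0.05. Of all genes tested, 11.5% were higher and 13.0% lower. Atp6v1g1, of the peripheral stalk, had 105, 104 and 108 FPKM with haloperidol, against 128, 126 and 129.8 FPKM with DMSO (log2 fold change -0.28 ± 0.04 SE, adjusted p = 0.00286 by limma). Atp6v1c1, which holds the stalks to V0, had 42.7, 40.6 and 40.3 FPKM with haloperidol, against 49.7, 50.1 and 57.8 FPKM with DMSO (log2 fold change -0.34 ± 0.07 SE, adjusted p = 0.00816 by limma). For both, the groups were clear of each other. Rogdi, known in human cells as a subunit of the complex that brings V1 and V0 together, went the other way. It had 22.2, 22.1 and 24.3 FPKM with haloperidol, against 15.8, 14.4 and 15.9 FPKM with DMSO (log2 fold change 0.54 ± 0.07 SE, adjusted p = 0.00099 by limma). The difference between V1 and V0 genes was not tested.

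**Figure D4:**
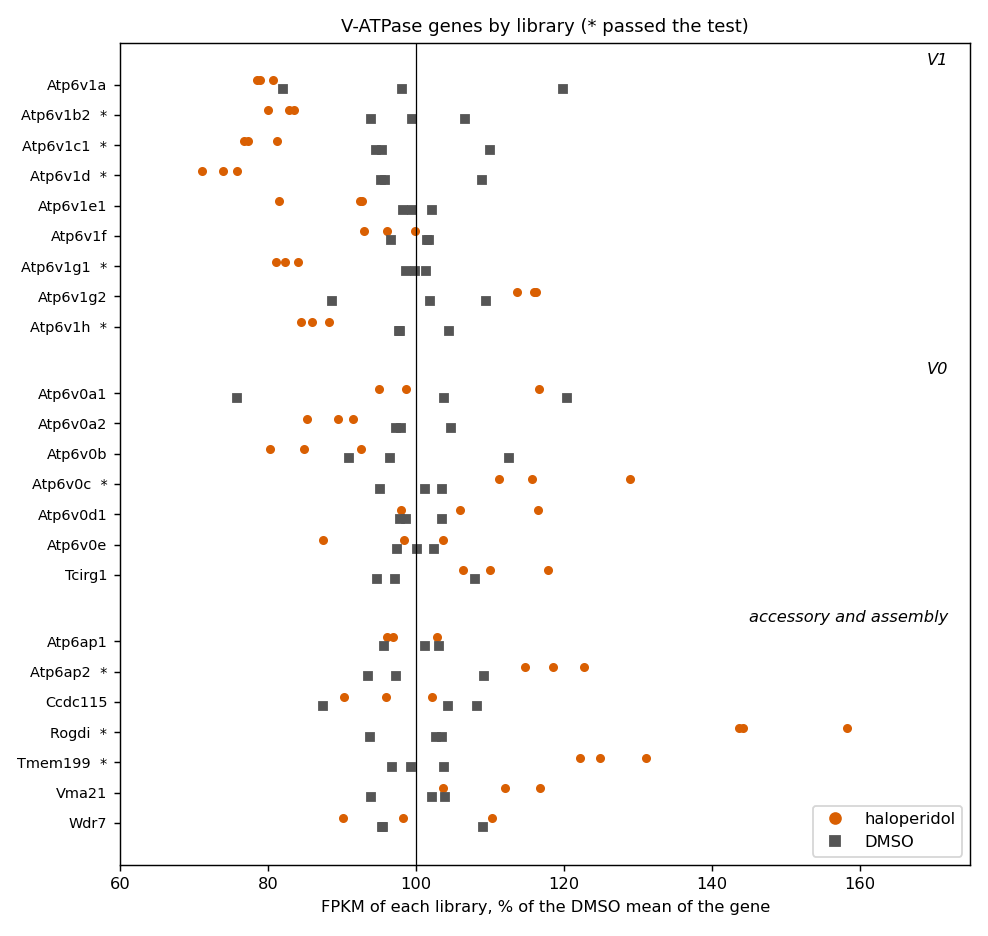
FPKM of each V-ATPase gene in each library, as a percentage of that gene's DMSO mean, for V1, V0 and accessory or assembly genes. Orange circles are haloperidol libraries, grey squares DMSO libraries, and a star marks genes that passed the test. Of the 9 V1 genes 8 have all haloperidol libraries clear of the DMSO libraries and 5 are starred as lower, Atp6v1g2 alone lying above, while the V0 genes lie on both sides of 100. Of all genes tested, 43.1% have groups that do not overlap and 13.0% passed as lower.

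The other genes of the pathway, listed for this comparison, kept closer to the background. Of 171 tested over 7 lists, 16 were higher and 23 lower with haloperidol (22.8%), with a median log2 fold change of -0.01. Of 36 further hydrolases and activators, 5 were higher and 4 lower, with a median of 0.01. Pla2g15, the lysosomal phospholipase A2, had 11.0, 12.6 and 11.2 FPKM with haloperidol, against 23.8, 25.9 and 23.8 FPKM with DMSO. Every haloperidol library was far below every DMSO library, and the log2 fold change was -1.02 ± 0.07 (SE, adjusted p = 7.48e-05 by limma). Hgsnat, an enzyme of heparan sulfate breakdown, rose (log2 fold change 0.31, adjusted p = 0.00747), and Ctso, cathepsin O, fell (-0.26, adjusted p = 0.0154), a call lost without DMSO replicate 2 or 3 (adjusted p up to 0.0547). Of 25 further membrane proteins, 2 were higher and 4 lower, with a median of 0.01. Those with the smallest p all fell: Glmp, listed as 0610031J06Rik (log2 fold change -0.28, adjusted p = 0.00737), the nucleoside transporter gene Slc29a3 (-0.40, adjusted p = 0.0075) and Cln3, the gene of a juvenile form of neuronal ceroid lipofuscinosis in humans (-0.47, adjusted p = 0.0113).

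Genes that read nutrients at the lysosome and steer mTORC1 and TFEB were tested in 24 cases, of which 2 were higher and 3 lower, with a median log2 fold change of 0.03. Tfec, a relative of TFEB, had 5.03, 4.68 and 3.91 FPKM with haloperidol, against 8.76, 10.6 and 11.1 FPKM with DMSO. The highest haloperidol library was below the lowest DMSO library, and the log2 fold change was -1.01 ± 0.11 (SE, adjusted p = 0.000596 by limma). Rheb, the GTPase that switches mTORC1 on, had 43.7, 41.6 and 41.0 FPKM with haloperidol, against 60.4, 54.4 and 59.1 FPKM with DMSO (log2 fold change -0.45 ± 0.06 SE, adjusted p = 0.00113 by limma). Nprl2, part of the GATOR1 complex that holds mTORC1 off when amino acids are scarce, also fell (-0.41, adjusted p = 0.00698).

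Of 36 autophagy genes, 2 were higher and 6 lower, with a median log2 fold change of -0.07. The smallest p belonged to 2 members of the Atg8 family, which coat autophagosomes, and to Atg101. Gabarapl1 had 81.5 ± 3.43 FPKM with haloperidol and 119.2 ± 6.96 FPKM with DMSO (SD, n = 3 each; log2 fold change -0.54, adjusted p = 0.000551 by limma). Map1lc3a had 26.3 ± 1.86 FPKM with haloperidol and 37.6 ± 2.39 FPKM with DMSO (log2 fold change -0.50, adjusted p = 0.00187 by limma). Atg101, a subunit of the complex that starts autophagy, listed as 9430023L20Rik, had 125 ± 4.42 and 148 ± 7.91 FPKM (log2 fold change -0.25, adjusted p = 0.0131 by limma).

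**Figure D5:**
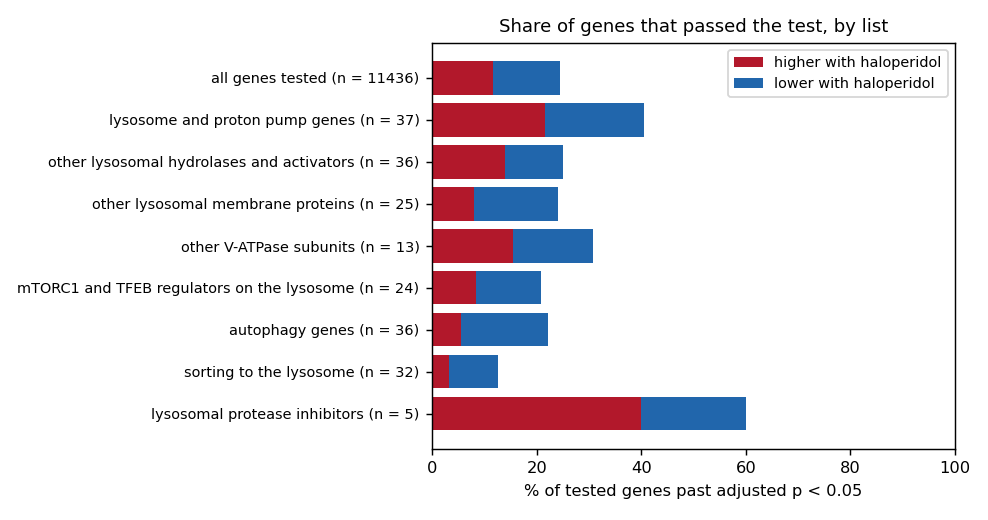
Percentage of tested genes that passed the test as higher (red) or lower (blue) with haloperidol, for all genes tested, the 37 lysosome and proton pump genes and 7 lists of other pathway genes, with the number tested. The 37 genes stand at 40.5% and all genes at 24.5%. Among genes above the median level of all genes tested, which are not drawn, 32.5% passed. The list of 5 protease inhibitors is too short for its share to be read.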

How the data were processed

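The authors deposited one table of FPKM per gene and library, with 0 columns beyond the 6 libraries. Per the submitters' processing notes, the tools were bcl2fastq 2.19.1.403, TopHat2 2.1.1, HTSeq 0.6.1 and DESeq2 1.18.1 with the build mm10. For the annotation release and the way of counting, the answer is not given in the sources used here. Per the labels' protocols, cDNA was made with SMART-Seq v4 and libraries with Nextera XT, which keep no strand. In each library, low FPKM values are whole multiples of 1 read, and whole reads came out for 100% of genes above 0 within 0.001 reads. These gave the depth and 1 added test.

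Genes with a mean of at least 1 FPKM were log-transformed as log2(FPKM + 1) and tested in R 4.3.3 by limma 3.58.1 (variance trend, no covariate, two-sided, Benjamini-Hochberg over 11436 genes, threshold 0.05). Fold changes on this scale understate those of low genes. The deposited unit is FPKM, so the main test was on the log scale, and the recovered reads served an alternative only. The fit was checked on simulated data. Alternatives were 2 other pseudocounts, no filter, 3 scalings, a replicate block, a robust prior, sample weights, leaving out each library and limma voom on the recovered reads.

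The genes and lists were chosen with earlier results of these data known. Called genes and Tfeb, Tfe3, Mcoln1, Lamp1, Lamp2, Ctsd, Atp6v0c and Atp6v1a were given library by library, and of other lists up to 3 called genes of smallest p were named. Coordinates are from GENCODE vM21 and promoters from RefSeq. Of 192 other pathway names, 191 were in the table, 6 of all listed names under older symbols.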

Additional observations from a re-analysis of the deposited data

How the results depend on the processing

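Without the filter on low values (20633 genes tested), 848 genes were higher against 1320 in the main analysis, and 4 of the 37 genes were higher and 4 lower, against 8 and 7. More genes were then tested, which changes both the adjustment and the shared variance. Leaving out 1 library at a time, 817 to 985 genes were higher and 997 to 1228 lower, and of the 37 genes 4 to 7 were higher and 2 to 7 lower. These fits have fewer samples.

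Under the other alternatives the counts stayed within 1.5 times. The test on recovered reads, chosen after seeing the data, called 11 of the 37 as higher and 8 as lower, and 1582 and 1748 genes in all. Upper quartile scaling gave 10 and 6. None of the 15 called genes changed sign, while the uncalled Mcoln1, Ctsc, Gla and Atp6ap1 did in at least 1 alternative. No scaling moved the median of all genes beyond -0.016 to 0.026.

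With the replicate number as a block, 9 of the 37 genes were higher and 6 lower (1208 and 1344 genes in all): Psap (adjusted p = 0.00499) and Atp6v0b (lower, 0.0419) passed, and Ctsd (0.0627) and Smpd1 (0.0649) did not. Libraries with the same number deviated together only weakly (correlations 0.009, 0.055 and 0.02), and not every library correlated best with its own number. With 3 libraries per group, these correlations cannot tell whether the numbers pair the samples. Depth limits the lowest of the 37 genes, Tfeb, to 133 to 209 reads per library.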

Other observations

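Sorting genes and protease inhibitors of the lysosome were also read. Of 32 genes that carry proteins to the lysosome, 1 was higher and 3 lower with haloperidol, with a median log2 fold change of -0.02. Those that fell were Vps26a, a retromer subunit (32.1 ± 0.947 FPKM with haloperidol and 38.4 ± 2.03 FPKM with DMSO, SD, n = 3 each, limma adjusted p = 0.0155), Tsg101, of the ESCRT machinery (log2 fold change -0.21, adjusted p = 0.018), and Arl8a, a GTPase that moves lysosomes along microtubules (-0.28, adjusted p = 0.026). All 3 calls were lost without haloperidol replicate 2 or DMSO replicate 3, that of Vps26a also without DMSO replicate 2, that of Tsg101 without DMSO replicate 1, and that of Arl8a without haloperidol replicate 3 or DMSO replicate 2, with adjusted p up to 0.0894 over the fits that leave out 1 library. Of 5 protease inhibitors, 2 were higher and 1 lower. Cst7, cystatin F, which inhibits cathepsins, had 70.1, 67.4 and 75.5 FPKM with haloperidol, against 53.7, 55.6 and 50.6 FPKM with DMSO (log2 fold change 0.41, adjusted p = 0.00227 by limma). Serpinb1a fell (-0.25, adjusted p = 0.0178), a call lost without haloperidol replicate 2 or DMSO replicate 2 (adjusted p up to 0.0637), and Serpinb6a rose (0.29, adjusted p = 0.044), a call lost without any 1 of the 6 libraries (adjusted p from 0.077 to 0.129).

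Counts for markers of other bone marrow cells were as follows, beside 11.5% higher and 13.0% lower among all genes tested. The lists are short for a comparison with these shares. Of 3 osteoclast genes tested, 0 passed, and of 8 neutrophil genes 1 was higher. Of 3 mast cell and basophil genes, 2 were higher and 1 lower, and of 4 B and plasma cell genes 3 were lower, with a summed level of 27.6 to 35.8 FPKM with haloperidol and 49.2 to 54.9 FPKM with DMSO. The 1 T and NK cell gene tested did not pass. Of 6 erythroid genes 1 was lower, of 3 endothelial genes 1 was lower, and of 3 stromal genes 1 was higher. The part of these cells in the values of the lysosomal genes was not tested.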
